A study of Mus musculus with 2 samples.

Results

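The cells described here carried transcripts of complement C1q and few transcripts of the iron-handling macrophage program, and they came from CD64-sorted mouse thymus. They were gated on raw counts of unique molecular identifiers (UMIs, each standing for 1 captured transcript). A cell entered the gate with at least 3 UMIs of C1qa, C1qb and C1qc together and with fewer than 2 UMIs of each of 4 other sums. Those sums were Vcam1, Spic, Slc40a1 and Mertk (iron-handling macrophages), Prg4, Alox15, Pf4 and Ecm1 (cavity-type macrophages), Ace, Treml4 and Adgre4 (nonclassical monocytes), and Cd209d with Cd209e (lectin receptors). The gate held 195 of 3188 kept cells, a share of 6.12% with an exact binomial 95% interval of 5.31 to 7.01%. The members were thus chosen by the measured counts of these 16 genes, whose values are not results. The cells are called iron-low C1q cells below, and not macrophages, because only part of them lay in clusters that resembled macrophages. In that name, iron-low refers only to the sum of Vcam1, Spic, Slc40a1 and Mertk and not to iron and haem genes in general.

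The series profiled thymic cells of adult C57BL/6 mice (C57BL/6J in the design text) that had been digested from the tissue and sorted for surface CD64, a high-affinity Fc receptor used to select macrophages. No treatment, mutant allele or transgene was given, nor was the age, the sex or the number of pooled animals, and the title of the series concerns the heterogeneity and origin of thymic macrophages. Of 2 libraries made by 10x Genomics 3′ counting, the 2021 library is described here because its gene names were at hand. The 2024 library (2815 barcodes, median 5312 UMIs) was not analysed here beyond its depth, and barcodes shared between the libraries were not counted.

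All comparisons were therefore made within 1 library of 3214 barcodes and 8534578 UMIs, with a median of 2157.5 UMIs per barcode (lowest 502, highest 18653). Without a second library with gene names there was no replicate, and no test was run. Levels are UMIs per 1e6 UMIs of the summed cells (CPM, the usual count scale), and their exact Poisson 95% intervals cover counting error only. A difference is given as the log2 ratio of the CPM with 10 CPM added, which understates the change of low genes. A gene is termed higher or lower where that log2 ratio was at least 1 in size and the higher side had at least 10 UMIs. All groups came from the same mice, tissue and sort: all other kept cells (2993), C1q cells with at least 2 iron-handling UMIs and fewer than 2 of each of the other 3 sums (122, called iron-high), Ly6c2 monocytes with fewer than 3 C1q UMIs (285), and Ace Treml4 nonclassical monocytes (93).

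C1q is the recognition part of the classical complement pathway. It is made largely by tissue macrophages, and it also binds dying cells and helps their uptake. In the thymus most developing T cells die during selection, and macrophages engulf them, digest them in lysosomes, and export the lipid and iron they release. Macrophages that also hold large amounts of MHC class II can show peptides to T cells, a role shared with dendritic cells, and many tissue macrophages that do so are replenished from blood monocytes.

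The iron-low C1q cells were of ordinary depth and varied widely in C1q itself. Their median was 2479 UMIs and 1041 genes per cell (UMIs from 504 to 12678), against a median of 2158 UMIs in all other kept cells, and the median mitochondrial share was 0.876%. C1q counts per cell ran from 3 to 119, with a median of 9 and a middle range of 4 to 19.5. With the kept cells cut into 4 equal bins of depth, from the shallowest to the deepest, 6.27%, 4.39%, 6.04% and 7.76% of the kept cells were in the gate. Just inside the C1q limit were 29 cells with 3 UMIs and 21 with 4, and just outside were 50 cells with 2 UMIs that passed every other limit. On the iron-handling side, 46 gated cells had a sum of 1, and 25 of the iron-high cells had a sum of 2. No UMI of any of the 4 excluding sums was found in 128 gated cells.

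A macrophage-like cluster label held for part of the gate. The marker list behind that label held the gating genes C1qa, C1qb and C1qc and also Ccl12, Retnla, Cxcl9 and Cfb. The label thus rests partly on the gate. Among 13 clusters built without reference to the gate, macrophage-like clusters held 95 of the 195 cells (48.7%, exact binomial interval 41.5 to 56.0%), all of them in a cluster of 384 cells led by Ccl12, C1qa and Cfb. Not a single gated cell fell in the second macrophage-like cluster, of 54 cells led by Vcam1, Saa3 and Gdf15, which held 39 of the iron-high cells. The iron-handling genes that the gate excludes are among the leading genes of that cluster, so this follows from the rule. A small unnamed cluster led by Pf4, Prg4 and C4b held 23 gated cells, at a median depth of 682.5 UMIs over its 46 cells. It was left unnamed because its leading 10 genes held 1 marker of another cell type and, at that depth, no macrophage marker. Even so, 12 macrophage markers were raised in it and its C1q level was 14454 CPM, with at least 3 C1q UMIs in all 46 cells. The rest fell in clusters that resembled monocytes (20), T lineage cells (16), B lineage cells (11), cDC2 dendritic cells (9), neutrophils (7), dividing cells (7, unnamed), NK or innate lymphoid cells (5) and mature dendritic cells (2). C1q transcripts are among the leading genes of the cluster of 384 cells and also chose the gated cells, so the macrophage-like share by C1q band is description: 20% of 50 cells with 3 to 4 C1q UMIs, 30.6% of 49 cells with 5 to 9, and 72.9% of 96 cells with 10 or more. The clusters used the genes described below, so differences of the 95 macrophage-like cells from other cells are description.

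**Figure D1:**
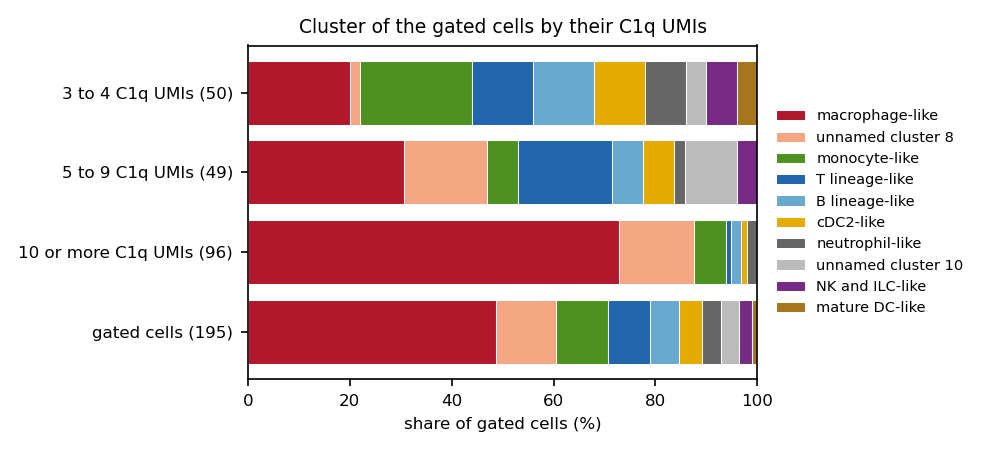
Stacked bars show, for gated cells with 3 to 4, 5 to 9 and 10 or more C1q UMIs and for all 195, the percentage of cells in each kind of cluster. Macrophage-like cells make up 20%, 30.6% and 72.9% of the 3 bands and 48.7% of the whole.

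Low C1q counts also occurred in cells that should not make C1q, and those values stand beside everything that follows. Neutrophil-like clusters (510 cells, median 1715 UMIs) held C1q at 123 CPM (105 to 144), and at least 3 C1q UMIs were seen in 10 of their cells (1.96%, 0.944 to 3.58%). In T lineage-like clusters (363 cells, median 958 UMIs) the corresponding values were 302 CPM and 19 cells (5.23%). In the B lineage-like cluster (215 cells) they were 367 CPM and 18 cells (8.37%). The monocyte-like cluster (454 cells) held 428 CPM, with 37 cells (8.15%) at 3 UMIs or more. Macrophage-like clusters (438 cells, median 2763.5 UMIs) held 4781 CPM, and 226 of their cells (51.6%) reached 3 UMIs. A single C1q UMI was present in 32 neutrophil-like cells (6.27%). The doublet caller did not work on this library, but 35 gated cells (17.9%), among them 19 of the 95 macrophage-like cells (20%), lay among the 6% of kept cells with the highest doublet scores, against 5.58% of all other kept cells and 15.6% of the iron-high cells. The part of free RNA or of doublets in the gate was not tested.

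**Figure D2:**
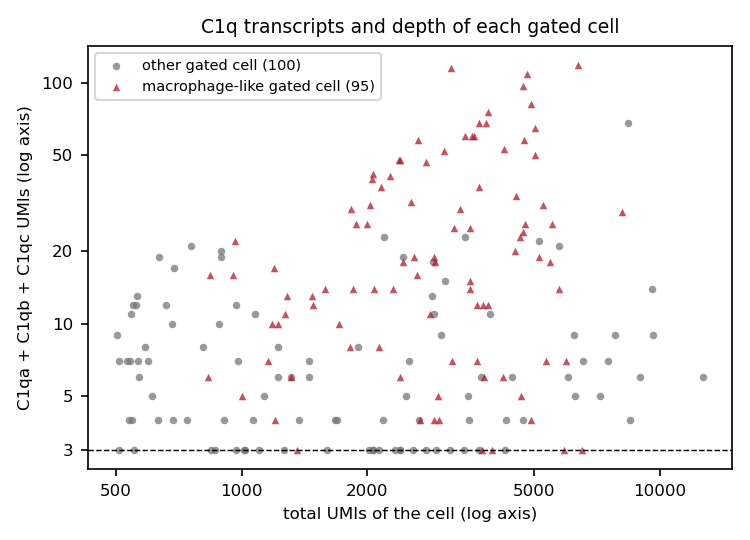
Each point is 1 of the 195 gated cells, with its total UMIs on the horizontal axis and its summed C1qa, C1qb and C1qc UMIs on the vertical axis, both logarithmic. The 95 macrophage-like cells (triangles) have a median of 18 C1q UMIs, and the dashed line marks the limit of 3.

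Markers of other cell types were unevenly spread within the gate. The 13 neutrophil markers summed to 6072 CPM in the iron-low C1q cells and 73081 CPM in all other kept cells, but to 425 CPM in the 95 macrophage-like cells and 17505 CPM in the 70 cells of other named clusters. Of S100a8, an abundant neutrophil protein, 49% of the gated UMIs lay in 1 cell. T lineage markers summed to 177 CPM in the macrophage-like cells and 2092 CPM in the 70 cells of other named clusters. Cd3g, a chain of the T cell receptor complex, had 27 UMIs in 14 gated cells and 1 UMI in the macrophage-like cells. B lineage markers summed to 39 and 789 CPM in the same order, and erythroid and platelet markers were at 0 in the gate. For this reason values of the 95 macrophage-like cells stand beside those of all 195 for the main genes.

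Of the genes that were to mark these cells beside C1q, Ccl12, Cfb and Cxcl9 were found in at least 15 gated cells each and Retnla in a single cell. Retnla, a secreted protein of alternative activation, had 2 UMIs in that cell and 0 UMIs in the 95 macrophage-like cells (0 CPM, at most 12.1). Fcgr1 (ENSMUSG00000015947), which encodes the sorted antigen CD64, had 37 UMIs in 27 gated cells. That was 65.2 CPM (45.9 to 89.9) in the gate, 98.1 CPM in its macrophage-like cells, 111 CPM (81.3 to 149) in the iron-high cells and 29 CPM in all other kept cells. Csf1r, the receptor for the macrophage growth factor CSF1, was at 305 CPM in the gate, 432 CPM (361 to 512) in its macrophage-like cells and 334 CPM in the iron-high cells. The Fcgr1 level was smaller in the gate than in the iron-high cells, but it was not past the limit for a lower gene. Their separate intervals overlapped, which does not show that the levels were equal.

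Against all other kept cells, the genes with the largest differences included the chemokines Ccl12 and Ccl8, the complement factor Cfb and the apolipoproteins Apoc1 and Apoe, all higher, and neutrophil genes, lower. Of 5667 genes compared, 127 were higher (2.24%) and 129 were lower (2.28%). With every cell thinned to 1000 UMIs, which left 156 gated cells, the split was 167 higher and 330 lower. Among the 15 highest by rule were Ccl12, Apoc1, Cfb, Ccl8, Acp5, Lpl, Apoe, Hebp1, Lgals3bp, Cxcl2, Camk1, Dnase1l3, Cxcl16 and Axl, with log2 ratios from 3.23 for Ccl12 to 1.79 for Axl. The other, Golga3 (2.46), had 83% of its UMIs in 1 cell and a log2 ratio of 0.32 without that cell. The 15 lowest were led by Jchain, with 0 UMIs in the gate and 255 CPM elsewhere, and otherwise by granule and secreted genes of neutrophils and their precursors such as Retnlg (−4.72), Camp (−4.09), S100a9 (−3.70), Lcn2 (−3.63) and Elane (−2.49).

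Chemokine genes differed often. Of 14 chemokine genes compared with all other kept cells, 7 were higher and 1 was lower, and their median log2 ratio was 0.73 against 0.08 over all genes. Over all genes compared, 2.24% were higher and 2.28% lower. Ccl12 (ENSMUSG00000035352), which draws CCR2-bearing monocytes, had 215 UMIs in 36 gated cells. Its level was 379 CPM (330 to 433) in the gate, 612 CPM (527 to 706) in the 95 macrophage-like cells, 342 CPM (287 to 404) in the iron-high cells, 31.6 CPM in all other kept cells, 16.5 CPM in Ace monocytes and 2.06 CPM in Ly6c2 monocytes. The Ccl12 intervals of the gate and of the iron-high cells overlapped, that of the macrophage-like cells lay above both, and Ly6c2 monocytes had next to none. Ccl12 helped name the macrophage-like clusters and led the cluster of the 95 cells, so its level in them is description. The iron-high level is over all iron-high cells, in whatever cluster they lay. Ccl8, another chemokine gene, had 63 UMIs in 25 gated cells, at 111 CPM (85.3 to 142) in the gate, 168 CPM (131 to 213) in the iron-high cells and 0 UMIs in Ly6c2 monocytes. Ccl2, the best known ligand of CCR2, was at 89.9 CPM in the gate, 157 CPM (116 to 208) in its macrophage-like cells and 146 CPM in the iron-high cells.

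Cxcl16, a membrane-bound chemokine that is also a scavenger receptor and whose receptor CXCR6 is found on T and NK cells, was more evenly spread. It had 219 UMIs in 93 gated cells, 75 of which were macrophage-like. Its level was 386 CPM (337 to 441) in the gate, 641 CPM (554 to 737) in the macrophage-like cells and 272 CPM (224 to 328) in the iron-high cells. Cxcl2, which recruits neutrophils, was at 642 CPM (577 to 711) in the gate, 997 CPM in its macrophage-like cells and 124 CPM (91.9 to 163) in the iron-high cells, but 32% of its gated UMIs lay in 1 cell. Without that cell the log2 ratio of Cxcl2 to all other kept cells was 1.45 in place of 1.99. In gated cells with 0 UMIs of all excluding sums, Cxcl2 was not past the limit, at 0.62 against all other kept cells and 0.61 against the iron-high cells. Cxcl9, an interferon-γ-induced ligand of CXCR3, was sparse at 35 UMIs in 15 gated cells, with 61.7 CPM (43 to 85.8) in the gate and 91.6 CPM in its macrophage-like cells against 24.8 CPM in the iron-high cells. Ccl22, a product of mature dendritic cells, was the chemokine that was lower, at 12.3 CPM in the gate and 69.4 CPM elsewhere.

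Complement genes other than C1q were mostly not different. Of 9 compared with all other kept cells, 2 were higher (Cfb and C3ar1), 1 was lower (C5ar1) and the median log2 ratio was 0.29. Of all genes compared, 2.24% were higher and 2.28% lower. Cfb (ENSMUSG00000090231), the protease-bearing factor B of the alternative pathway, had 97 UMIs in 51 gated cells, 43 of them macrophage-like. It stood at 171 CPM (139 to 209) in the gate, 291 CPM (234 to 358) in the macrophage-like cells, 56.9 CPM (36.1 to 85.4) in the iron-high cells, 49.4 CPM in Ly6c2 monocytes and 20.6 CPM in Ace monocytes. The Cfb interval of the gate lay above that of the iron-high cells. C3, the central complement protein, was at 264 CPM (224 to 310) in the gate, 373 CPM (308 to 448) in its macrophage-like cells and 240 CPM in the iron-high cells. Cfp (properdin, which stabilises the alternative pathway convertase) ran the other way, at 143 CPM (113 to 177) in the gate, 154 CPM in its macrophage-like cells and 455 CPM (392 to 526) in the iron-high cells.

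**Figure D3:**
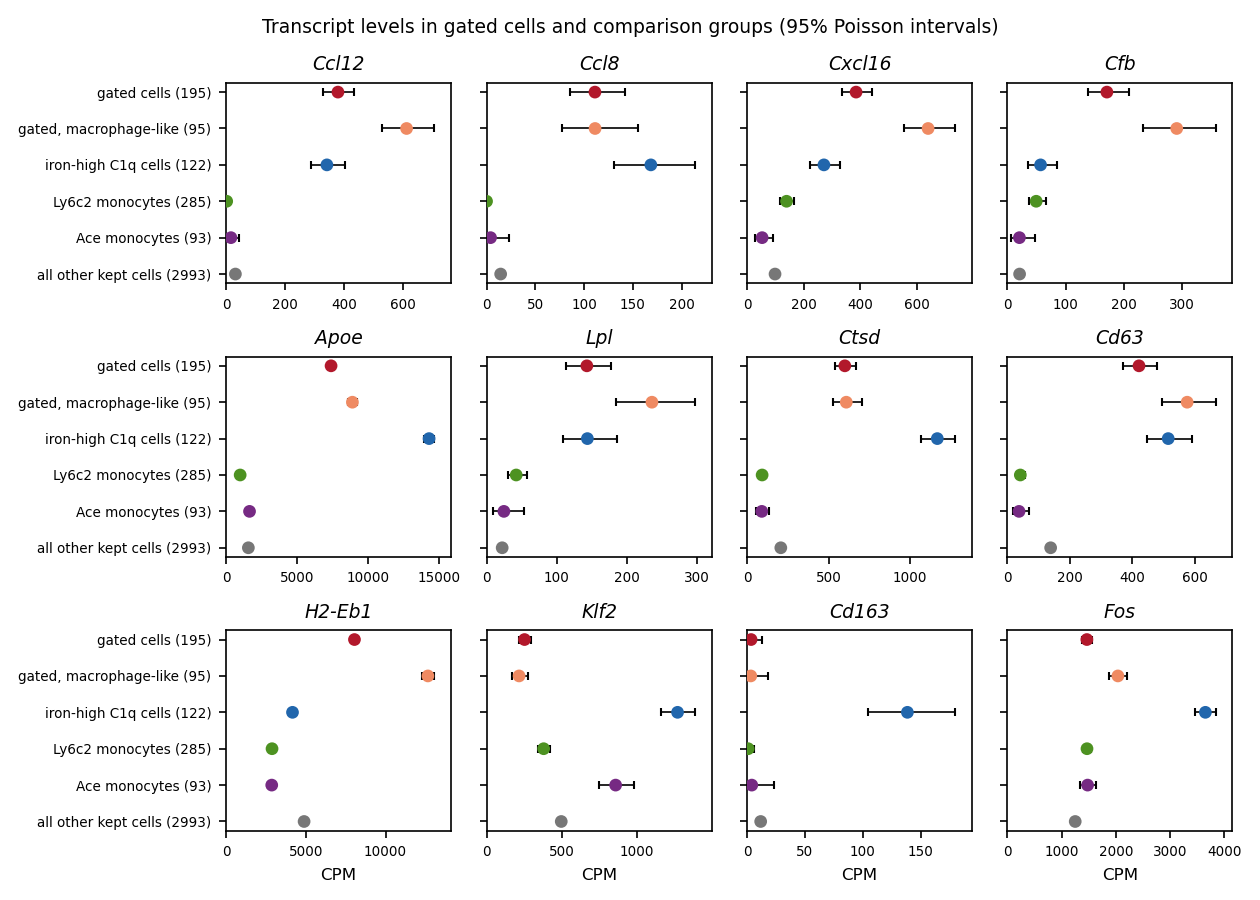
Points show the level (CPM, linear axis from 0) of 12 genes in the 195 gated cells, their 95 macrophage-like cells, iron-high C1q cells, Ly6c2 monocytes, Ace monocytes and all other kept cells, with exact Poisson 95% intervals of counting error. Ccl12 intervals of the gate and of iron-high cells overlap. Against the iron-high cells, Cfb is higher in the gate, and Klf2, Cd163 and Fos are lower in the gate. H2-Eb1 has the larger level in the gate but is under the limit for a higher gene.

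Lipid-handling genes and lysosomal genes were raised against all other kept cells as groups, where 2.24% of all genes compared were higher. Of 17 lipid genes compared, 6 were higher and none was lower (median log2 ratio 0.69), and the list summed to 11329 CPM in the gate and 3839 CPM elsewhere. Most of the sum in the gate came from Apoe. Against the iron-high cells, where the list summed to 19031 CPM, 1 of 18 was higher and 2 were lower (median −0.50). Over all genes in that comparison, 1.86% were higher and 6.43% lower. Apoe (ENSMUSG00000002985), the apolipoprotein through which macrophages export cholesterol, was present in 178 of the 195 cells. Its level was 7395 CPM (7173 to 7623) in the gate, 8899 CPM in the macrophage-like cells, 14301 CPM (13934 to 14674) in the iron-high cells and 1570 CPM (1542 to 1597) in all other kept cells. The iron-low C1q cells thus lay between the iron-high cells and the rest. Lpl, the lipase that releases fatty acids from lipoproteins, was at 143 CPM (113 to 177) in the gate, 235 CPM (184 to 297) in its macrophage-like cells and 144 CPM (109 to 186) in the iron-high cells. Apoc1 was unlike these: 679 CPM (613 to 750) in the gate, but 356 CPM in the macrophage-like cells and 2458 CPM in the 30 cells of unnamed clusters. Those 30 pool 23 cells of the Pf4-led cluster with 7 dividing cells.

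Of 33 lysosomal genes compared with all other kept cells, 12 were higher and none was lower, beside 2.24% higher over all genes compared. Their median log2 ratio was 0.91 and the sums were 14170 and 6737 CPM. The higher genes included the proteases Ctsb, Ctsc, Ctsd, Ctss, Ctsz and Lgmn, and Cd63, Gusb, Psap and Grn. Against the iron-high cells none of the 33 was higher and 4 were lower, beside 1.86% higher and 6.43% lower over all genes compared. Of those 33 log2 ratios 8 were above 0, the median was −0.45, and the list summed to 17536 CPM in the iron-high cells. Ctsd, the aspartic protease cathepsin D, was at 599 CPM (537 to 667) in the gate, 608 CPM in the macrophage-like cells, 1166 CPM (1063 to 1276) in the iron-high cells and 207 CPM elsewhere. Ctss, the cathepsin that trims the invariant chain for MHC class II loading, had the opposite order between the C1q cells, at 1581 CPM (1479.5 to 1688) in the gate, 2404 CPM in its macrophage-like cells and 1258 CPM (1151 to 1372) in the iron-high cells. Psap, the precursor of sphingolipid activator proteins, was at 2965 CPM in the gate, 3892 CPM in its macrophage-like cells and 2720 CPM in the iron-high cells. Acp5 (tartrate-resistant acid phosphatase) was at 261 CPM (221 to 306) in the gate, 350 CPM (287 to 423) in its macrophage-like cells, 250 CPM in the iron-high cells and 46.8 CPM elsewhere.

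MHC class II transcripts were more abundant in the gate than in the iron-high cells, above all in its macrophage-like cells. None of the 11 class II genes passed the limit for all 195 cells, against either all other kept cells (median log2 ratio 0.36) or the iron-high cells (0.69, with −0.05 over all genes). The list summed to 41508 CPM in the gate and 22781 CPM in the iron-high cells. With the gate restricted to its 95 macrophage-like cells the median against the iron-high cells was 1.15, and with both sides restricted to macrophage-like clusters it was 0.99. H2-Eb1 (ENSMUSG00000060586), a class II beta chain, was at 8048 CPM (7816 to 8285) in the gate, 12653 CPM (12258 to 13058) in the macrophage-like cells, 4164 CPM (3967 to 4368) in the iron-high cells and 4891 CPM in all other kept cells. It was detected in 93 of the 95 macrophage-like cells and in 73 of 122 iron-high cells. Cd74, the invariant chain, was found in all 95 macrophage-like cells, at 25826 CPM against 9780 CPM in the iron-high cells. The H2-Eb1 and Cd74 values of the iron-high cells are over all 122, in whatever cluster they lay.

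As a share of each cell's own UMIs, class II transcripts had a median of 2.58% in the gate, with a middle range of 0.327 to 6.22% and a highest value of 14.1%. In 13 gated cells they were at 0. The median was 6.16% in the macrophage-like cells (middle range 4.28 to 8.41%), 0.552% in the iron-high cells (0.185 to 2.83%), 0.508% in Ly6c2 monocytes and 0.376% in Ace monocytes. The middle range of the macrophage-like cells lay wholly above that of the iron-high cells. The iron-high cells were not restricted by cluster in these shares. Of the 122, 84 lay in macrophage-like clusters, and 39 of these were in the Vcam1-led cluster that held no gated cell. The 45 iron-high cells that shared a cluster with the 95 gated cells were not taken apart. Lysosomal transcripts had closer medians, at 1.38% in the gate, 1.86% in its macrophage-like cells and 1.98% in the iron-high cells. In Ly6c2 monocytes the median was 0.994%, and in all other kept cells it was 0.509%.

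**Figure D4:**
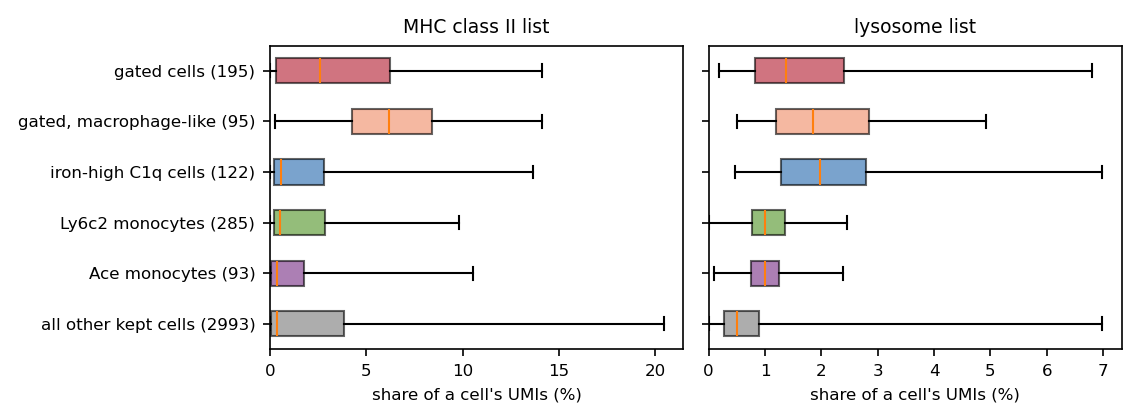
Boxes give the middle range and median, and whiskers the lowest and highest cell, of MHC class II and lysosomal UMIs as a percentage of each cell's UMIs. The class II median is 6.16% in the 95 macrophage-like cells of the gate and 0.552% in iron-high cells, while the lysosomal medians are 1.86% and 1.98%. Over all 195 gated cells the medians are 2.58% for class II and 1.38% for lysosomal genes. The iron-high cells are not restricted by cluster.

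Promoter sequence is printed for both groups because their genes are textbook cases of shared promoter elements. In class II promoters the shared element is the Y box, with core GATTGG, which reads as CCAATC on the other strand, and in many lysosomal promoters it is an E-box with core CACGTG, which is its own reverse complement. Windows from 250 bases before to 50 bases after each RefSeq start (GRCm38.p6) were searched on both strands. GATTGG was found in 7 of the 8 class II genes that could be matched, of 11 listed (87.5%), in 18.2% of all 27025 genes with an entry and in 16.1% of 32851 promoters. CACGTG was found in 11 of the 29 lysosomal genes matched, of 38 listed (37.9%), in 8.09% of all genes and in 7.15% of promoters. Stretches that hold a match follow, written 5′ to 3′ on the gene's strand, with each match in capitals: H2-Aa at chr17:34287824-34287943 (minus strand), H2-Eb1 at chr17:34305747-34305866 (plus), Lamp1 at chr8:13159041-13159160 (plus) and Ctsd at chr7:142387908-142387937 (minus). A match describes the letters only.
H2-Aa: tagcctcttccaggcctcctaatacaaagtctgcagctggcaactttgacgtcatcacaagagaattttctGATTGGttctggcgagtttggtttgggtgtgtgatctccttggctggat
H2-Eb1: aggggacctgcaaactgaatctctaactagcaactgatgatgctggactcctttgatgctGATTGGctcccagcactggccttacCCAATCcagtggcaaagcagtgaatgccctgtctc
Lamp1: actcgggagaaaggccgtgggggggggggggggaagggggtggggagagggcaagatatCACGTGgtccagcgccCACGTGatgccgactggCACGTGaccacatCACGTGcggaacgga
Ctsd: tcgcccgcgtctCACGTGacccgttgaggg
The H2-Aa stretch holds 1 match and the H2-Eb1 stretch 2, on opposite strands. H2-Aa, a class II alpha chain, stood at 5245 CPM in the gate and 3027 CPM in the iron-high cells. Lamp1, a structural protein of the lysosomal membrane whose stretch holds 4 matches, stood at 492 CPM (436 to 553) and 676 CPM (598 to 761). Ctsd showed the same order as Lamp1. Its stretch holds 1 match in 30 bases and the other stretches have 120 bases, so the match counts cannot be compared. A link between matches and levels was not tested.

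Against the iron-high C1q cells, the iron-low cells were mainly lower in genes rather than higher. Of 5929 genes compared, 110 were higher (1.86%) and 381 were lower (6.43%). With cells thinned to 1000 UMIs the split was 133 higher and 274 lower, and with the gate restricted to its macrophage-like cells it was 146 and 474. The lower genes by rule were Gdf15 (log2 ratio −5.23), Cd163 (−3.46), Rhob (−3.44), Itgad (−3.11), Slc1a3 (−2.98), Tcf7l2 (−2.85), Wfdc21, Camp, Elane and Prtn3. Elane and Prtn3, proteases of neutrophil precursors, turned to 1.27 and 0.46 without the single iron-high cell that held most of their UMIs. The neutrophil markers summed to 28643 CPM in the iron-high cells and 6072 CPM in the gate, and their part in the comparison was not tested.

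The lower genes included haem and iron genes that the gate had not used. The iron-high cells were chosen by Vcam1, Spic, Slc40a1 and Mertk. Gdf15, Rhob and Cd163 were leading genes, beside those 4, of the cluster that held 39 iron-high cells. Lower values of genes that go with the gating genes therefore follow in part from the rule and are description. Cd163 (ENSMUSG00000008845), the receptor for haemoglobin bound to haptoglobin, had 56 UMIs in the iron-high cells, or 139 CPM (105 to 180), and 2 UMIs in the gate. Gdf15, a stress-induced cytokine, had 174 UMIs in the iron-high cells and 1 UMI in the gate. Of 15 iron and haem genes compared, Cd163 among them, 6 were lower and none was higher, with a median log2 ratio of −0.37. Over all genes compared, 6.43% were lower. The lower iron and haem genes included Hmox1, which breaks down haem, and Trf, transferrin (88.1 against 488 CPM). Hmox1 was at 49.4 CPM in the gate, 36 CPM in its macrophage-like cells and 191 CPM in the iron-high cells. Fth1, the ferritin heavy chain that stores iron, did not follow, at 8906 CPM (8662 to 9155) in the gate and 7619 CPM (7353 to 7893) in the iron-high cells. Against all other kept cells, 5 of 15 iron and haem genes were higher and none was lower, beside 2.24% higher over all genes compared. The list summed to 15143.5 CPM in the gate, 7315 CPM in all other kept cells and 16523.5 CPM in the iron-high cells.

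Some macrophage surface genes and myeloid transcription factors were also lower than in the iron-high cells, where 6.43% of all genes compared were lower and 1.86% higher. Of 33 surface genes, 11 were lower and none was higher, among them Mrc1 (the mannose receptor, 38.8 against 282 CPM), Adgre1 (F4/80, 81.1 against 215 CPM) and Cd81 (159 against 668 CPM). Of 27 myeloid transcription factors, 9 were lower and 1 was higher. Maf, a macrophage transcription factor, was at 45.8 and 265 CPM in the gate and the iron-high cells, Klf2 at 252 and 1267 CPM, and Klf4 at 89.9 and 542 CPM. In the macrophage-like cells of the gate Maf was at 55.6, Klf2 at 216 and Klf4 at 94.8 CPM. The uptake receptor Axl, which binds phosphatidylserine on dying cells through GAS6, was at 249 CPM (209 to 293) in the gate, 379 CPM (313 to 455) in its macrophage-like cells and 522 CPM in the iron-high cells.

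Immediate early genes, which are also induced by tissue digestion, moved with these factors. Of 21 compared with the iron-high cells, 11 were lower and none was higher, beside 6.43% lower over all genes compared. The median log2 ratio was −1.005 and the sums were 10535 and 20410 CPM. Fos was at 1465 CPM (1367 to 1568) in the gate, 2038 CPM in its macrophage-like cells, 3651 CPM (3467 to 3842) in the iron-high cells and 1250 CPM in all other kept cells. The gate was near the remaining cells, and the iron-high cells stood above both. Klf2, Klf4 and Rhob (68.8 CPM in the gate against 847 CPM) respond to the same stimuli, and the part of digestion in the differences of Klf2, Klf4 and Rhob was not tested.

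The 10 genes that were highest by rule against the iron-high cells were fewer in kind. They were Golga3, Cxcl2 (log2 ratio 2.28), Ccl5 (1.53), Ccl17 (1.50), Cfb (1.44), Rogdi (1.39), Cd72 (1.34), Hist1h1b (1.26), Fn1 (1.15) and Capg (1.15). Cd72, a C-type lectin of B cells and some macrophages, had 69 UMIs in 40 gated cells, 38 of them macrophage-like, at 122 CPM (94.6 to 154) in the gate, 219 CPM in its macrophage-like cells and 42.1 CPM (24.5 to 67.4) in the iron-high cells. Ccl5, a T and NK cell chemokine, was at 1007 CPM in the gate, 805 CPM in its macrophage-like cells, 342 CPM in the iron-high cells and 1514 CPM in all other kept cells. In gated cells with 10 or more C1q UMIs the log2 ratio of Ccl5 to the iron-high cells was 0.79, under the limit. Ccl17, a dendritic cell chemokine, was at 109 and 32.2 CPM in 12 and 4 cells. With 50 CPM added in place of 10, Ccl17, Rogdi, Cd72, Hist1h1b, Fn1 and Capg were under the limit, at 0.84 to 0.95. Hist1h1b, a replication-dependent histone, reversed to −2.02 in the macrophage-like cells. Fn1, fibronectin, had a log2 ratio of 0.74 without its top cell.

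**Figure D5:**
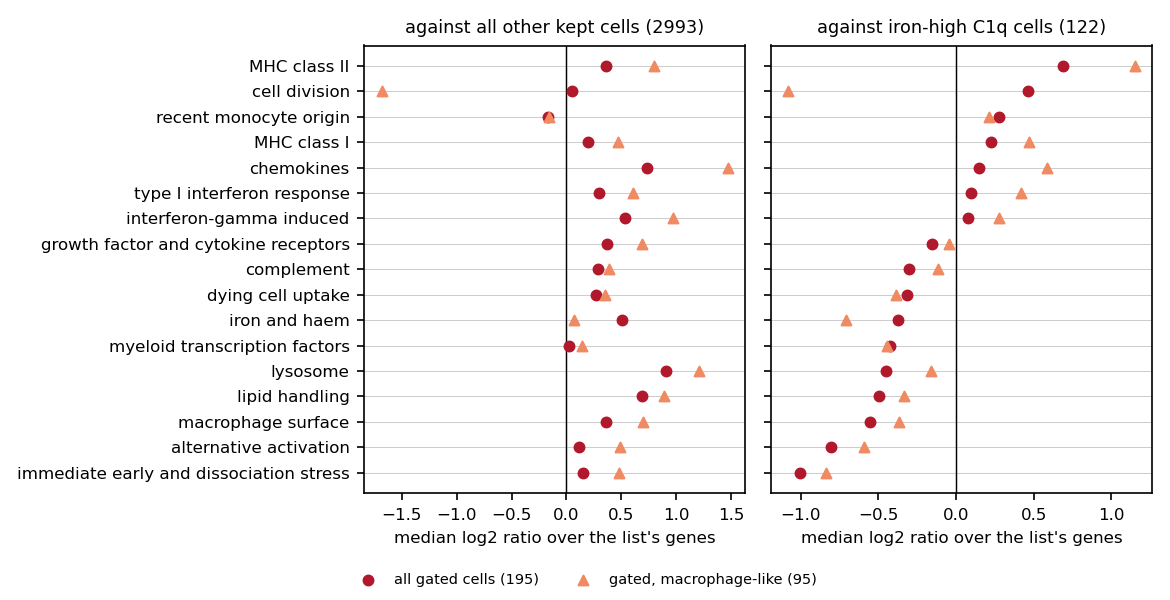
Each row is a gene list, with its median log2 ratio against all other kept cells and against iron-high C1q cells for all 195 gated cells (circles) and the 95 macrophage-like cells (triangles). MHC class II lies right of 0 in both comparisons (0.36 and 0.69 for all 195), and immediate early genes lie at −1.005 against the iron-high cells.

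Some lists changed with the make-up of the gate. For the counts below, 1.86% of all genes compared were higher than in the iron-high cells and 2.24% higher than in all other kept cells. T lineage markers had 7 of 16 genes higher than in the iron-high cells (median log2 ratio 0.91), but the median was −0.93 in the macrophage-like cells. Cell division genes had 5 of 22 higher (median 0.46) and a median of −1.08 in the macrophage-like cells (−0.60 with both sides macrophage-like). In those 95 cells division genes summed to 2358 CPM, against 7287 CPM in other named clusters and 12708 CPM in unnamed ones. The unnamed part pools 23 shallow cells of the Pf4-led cluster (median 633 UMIs) with 7 cells of the dividing cluster (median 7506 UMIs). Its sum describes neither alone. Of type I interferon genes, 2 of 48 were higher than in all other kept cells (median 0.30) and none of 47 passed the limit against the iron-high cells (median 0.10, and 0.42 for the macrophage-like cells). Per cell their median share of UMIs was 0.850% in the gate, 1.19% in its macrophage-like cells, 0.533% in the iron-high cells, 0.524% in all other kept cells and 0.987% in Ly6c2 monocytes. Interferon-γ-induced genes had 1 of 14 and 2 of 17 higher, the latter being Cxcl9 and Cd274, which encodes PD-L1 (88.1 against 37.1 CPM).

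Against Ly6c2 monocytes low in C1q, the iron-low cells had 263 of 5597 genes higher (4.7%) and 115 lower (2.05%), or 211 and 231 with cells thinned to 1000 UMIs. Among the monocytes, 77 of 285 lay in macrophage-like clusters. The highest by rule included Ccl12 (5.01), Apoc1 (4.003), Acp5 (3.15), Cd63 (3.07), Timp2 (2.95) and Apoe (2.89). Cd63, a tetraspanin of late endosomes and lysosomes, was at 421 CPM (370 to 478) in the gate and 41.2 CPM (29.4 to 56.1) in the monocytes. Timp2, an inhibitor of metalloproteinases, was at 298 CPM (255 to 346) and 29.9 CPM (20 to 42.9). The intervals of neither gene overlapped.

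By group, 6 of 11 class II genes (median log2 ratio 1.15), 8 of 13 chemokines (1.25), 10 of 33 lysosomal genes (0.62) and 7 of 16 lipid genes (0.58) were higher than in Ly6c2 monocytes. Of 17 genes of recent monocyte origin, 10 were lower and 1 was higher (median −1.15), a group close to the genes that gated these monocytes. Ccr2, the chemokine receptor of classical monocytes and part of that group's gate, was at 398 CPM in the iron-low cells and 252 CPM in the iron-high cells. T lineage markers were also higher in 15 of 16 genes, and their part in the comparison was not tested.

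Against Ace Treml4 nonclassical monocytes, 338 of 5542 genes were higher (6.1%) and 316 lower (5.7%). Class II genes (5 of 11, median 0.97), chemokines (8 of 13, median 2.12) and lysosomal genes (9 of 33, median 0.65) were again higher. Markers of other cell types differed too: 5 of 15 T lineage, 3 of 5 B lineage, 2 of 3 NK and innate lymphoid and 3 of 4 mature dendritic cell markers were higher. Of 10 neutrophil markers 6 were lower, with 6072 CPM over the list in the gate and 22571 CPM in the monocytes, and the part of these cells in the comparison was not tested. Of 18 genes of nonclassical monocytes, 17 were lower and none was higher (median −2.07), a group close to the genes that both gates used. Nr4a1, a nuclear receptor that nonclassical monocytes need, was at 122 CPM in the iron-low cells and 840 CPM in the monocytes. Itgal, the alpha chain of the integrin LFA-1, was at 88.1 and 630 CPM. Cd79a, a B cell receptor subunit, was among the 8 highest (log2 ratio 3.20) but stood at 0.23 in the macrophage-like cells.

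Within the gate, the levels of several genes differed between bands of C1q, the value that had chosen the cells. Ccl12 had 1 UMI in the 50 cells with 3 to 4 C1q UMIs, 14 UMIs (87.8 CPM) in the 49 cells with 5 to 9, and 200 UMIs (694 CPM, 602 to 798) in the 96 cells with 10 or more. In the same order Cfb was at 25.1, 43.9 and 302 CPM, and Apoe at 2874, 3805 and 11264 CPM. Class II genes summed to 24613, 25223 and 57550 CPM, so that the difference lay between the upper band and the lower ones. Lpl was level across the bands at 134, 144 and 146 CPM. T lineage markers were at 1028, 1843 and 337 CPM, with the lowest value in the cells richest in C1q.

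Across the 120 gated cells with at least 2000 UMIs, thinned to that number, C1q UMIs and lysosomal UMIs had a Spearman rho of 0.714 and a Pearson r of 0.701. For C1q with class II the rho was 0.543, with lipid genes 0.444, with type I interferon genes 0.443, with T lineage markers −0.173 and with neutrophil markers −0.076. These cells share 1 library and were chosen by their C1q counts, so the bands and the correlations describe the cells and support nothing further. Of the 96 gated cells with 10 or more C1q UMIs, 70 were macrophage-like.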

How the data were processed

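Cells sorted for CD64 from adult mouse thymus were profiled by 10x Genomics 3′ single-cell RNA sequencing. The deposited values are raw UMI counts, not normalized; the authors made them with Cell Ranger 6.0.0 (2021 library) and 8.0.0 (2024 library), per the file headers, against mm10, per the submitters' processing notes; how far cells had been filtered is not given in the sources used here. The 2021 library was used (32285 genes). Cells were kept from 500 UMIs and 300 genes upward where mitochondrial UMIs did not exceed 10%. The members and gene lists were chosen with earlier results of these data known.

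Counts were summed per group and expressed as CPM. Genes with at least 15 UMIs over both sides and at least 20 CPM on either side were compared, leaving out the genes that gated either side. Ly6c2 monocytes had fewer than 3 C1q UMIs, at least 1 of Ly6c2, at least 2 of Csf1r and Ccr2, none of Siglech and fewer than 2 of the Ace and lectin sums; Ace monocytes had at least 2 of the Ace sum, at least 1 of Csf1r and fewer than 3 C1q UMIs. Named genes were the 15 (all other cells), 10 (iron-high cells) or 8 (each monocyte group) ranked first by log2 ratio, each way, among called genes of at least 100 CPM, without ribosomal, mitochondrial, immunoglobulin, T cell receptor, Gm and Rik genes, plus up to 5 examples of each list. Clusters came from Leiden (2000 variable genes, 30 components, 15 neighbours, resolution 0.5) and were named from marker lists; names were rebuilt here and may differ from the study's. Scrublet at an expected rate of 6% marked 3 cells (0.0941%) and had not worked, so no doublet was removed, and leaving out the 6% with the highest scores is an alternative. The ratio script was tested on simulated data. Tools were Python 3.11.15, numpy 2.4.6, scipy 1.17.1, pandas 2.3.3, scanpy 1.11.5 and igraph 0.11.9.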

Additional observations from a re-analysis of the deposited data

How the results depend on the processing

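Of 82 named gene values, 76 kept their direction and 58 stayed past the limit under every alternative run for them (16 for the 20 values against iron-high cells, 15 for the other 62). Of the alternatives, 3 were chosen after seeing the data: both sides in macrophage-like clusters, without unnamed clusters, and without the top cell of each gene. The gated share was 4.55% with at least 5 C1q UMIs, 3.01% with at least 10, 4.02% with 0 UMIs of every excluding sum, and 2.98% in macrophage-like clusters. Counts are given as higher and lower. With at least 5 C1q UMIs, 175 genes were lower than in Ly6c2 monocytes. With at least 10 they were 287 and 348 against all other cells and 282 lower than in Ly6c2 monocytes, and in macrophage-like cells 308, 388 and 314. Thinning gave 330 lower than in all other cells and 231 lower than in Ly6c2 monocytes. Adding 1 CPM gave 259 and 221 against all other cells, 290 and 659 against iron-high cells, 488 and 236 against Ly6c2 monocytes and 581 higher than in Ace monocytes. Adding 50 CPM gave 40 and 36, 6 and 93, 61 and 31, and 72 and 99 in the same order. The mean CPM of cells gave 239 and 244 against all other cells, 244 higher than in iron-high cells, 446 and 189 against Ly6c2 monocytes and 608 higher than in Ace monocytes.

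Directions turned as follows. Against iron-high cells, Hist1h1b was −0.19 with at least 10 C1q UMIs, −2.02 in macrophage-like cells and −0.75 with both sides macrophage-like. Golga3 was −0.035 without the highest doublet scores, and Elane was 1.27 and Prtn3 0.46 without the top cell. The T lineage median was −0.30 with at least 10 C1q UMIs and −0.93 in macrophage-like cells. Against Ly6c2 monocytes, Camp was 0.57 and Ngp 0.15 without the highest doublet scores, and against all other cells the Fc receptor median was −0.014 after thinning. The cause was not tested. The cell division median against iron-high cells was −1.08 in macrophage-like cells, −0.60 with both sides macrophage-like and −0.05 with at least 10 C1q UMIs, against 0.46. In all, 44 of 899 list medians had the other sign than in the comparison as reported, over 15 of the lists and comparisons. A gene at under about 20 CPM rests on few UMIs here, and no difference below that level could be read. No paired analysis was possible because 1 library alone was compared within itself.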
